A study of Mus musculus with 16 samples.

Results

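A set of 9 genes of early B lymphopoiesis was followed through mouse bone marrow by single-cell RNA-seq. They are 9 of the 32286 features of the marrow matrices, chosen by symbol, and all 9 were found in each of the 12 marrow libraries. Ebf1 and Pax5 encode transcription factors that specify and commit the B lineage. Vpreb1, Vpreb3 and Igll1 encode surrogate light chain components or, for Vpreb3, a related partner of the immunoglobulin chains. Rag1 and Rag2 encode the V(D)J recombinase, Dntt encodes terminal deoxynucleotidyl transferase, and Il7r encodes the alpha chain of the IL-7 receptor.

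B cells arise in marrow from multipotent progenitors that first acquire lymphoid priming and then the IL-7 receptor. EBF1 and PAX5 switch on the B-cell program, the recombinase joins heavy chain gene segments while terminal transferase adds nucleotides at the junctions, and a successful heavy chain pairs with the surrogate light chain to form the pre-B-cell receptor. After a burst of division the recombinase returns to join a light chain, surrogate light chain and terminal transferase fall silent, and the cell leaves for the periphery as an immature B cell, from which mature B cells can recirculate to the marrow.

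On GRCm38 with the GENCODE M21 annotation, Ebf1 lies on the plus strand at chr11:44617317-45008091 with 16 annotated exons, and Pax5 on the minus strand at chr4:44524757-44710487 with 10. Several of the genes lie close to another member, and Vpreb1 has a near copy on the same chromosome. Igll1 (chr16:16860671-16863985, minus) and Vpreb1 (chr16:16868403-16870843, minus) lie 4.42 kb apart with 3 exons each. Rag1 (chr2:101638282-101649501, minus, 2 exons) and Rag2 (chr2:101624718-101632529, plus, 3 exons) lie 5.75 kb apart on opposite strands. Vpreb3 is at chr10:75943057-75949657 (plus, 2 exons), Dntt at chr19:41029275-41059525 (plus, 12 exons) and Il7r at chr15:9505788-9530176 (minus, 8 exons). Vpreb2 (chr16:17980428-17981273, plus) differs from Vpreb1 at 13 of the last 400 transcript bases, an identity of 96.8%, so the split of 3′ reads between these genes is uncertain.

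The window of 250 bases upstream of the RefSeq start is shown for Igll1 and Rag1, as 1 example from each pair of neighbouring members, with the E-box letters CAGGTG (searched on both strands), the letters bound by E2A-type factors. They were present upstream of 3 of 9 members, Igll1, Rag1 and Vpreb1, against 17.2% of 32851 RefSeq promoters of the same length. An EBF motif, TCCC and GGGA separated by any 2 bases, was in 0 of 9 members' windows and in 0.779% of these promoters. Capitals mark the E-box letters, which start 8 bases before the start of Igll1 (on the opposite strand) and 135 bases before that of Rag1, whose RefSeq start lies upstream of the GENCODE start given above. The sequences are from RefSeq, GRCm38.p6, written 5′ to 3′ on each gene's strand.
Igll1, chr16:16863986-16864235, minus strand: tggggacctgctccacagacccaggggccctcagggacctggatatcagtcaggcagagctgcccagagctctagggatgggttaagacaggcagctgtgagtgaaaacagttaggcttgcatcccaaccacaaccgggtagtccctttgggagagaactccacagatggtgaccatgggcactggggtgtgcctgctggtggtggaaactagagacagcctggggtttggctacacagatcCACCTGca
Rag1, chr2:101649533-101649782, minus strand: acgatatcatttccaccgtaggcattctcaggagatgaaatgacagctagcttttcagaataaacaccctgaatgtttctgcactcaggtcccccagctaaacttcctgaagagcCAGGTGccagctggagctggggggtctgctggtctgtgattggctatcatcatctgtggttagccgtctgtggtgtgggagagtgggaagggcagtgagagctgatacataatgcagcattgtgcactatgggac

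All mice were WT female BALB/c. The WT group was untreated and carried no tumor. The vehicle and IACS groups carried 2208L, a transplanted Trp53-null mammary tumor, and received oral 0.5% methylcellulose or IACS-70654, an inhibitor of the CBP/P300 bromodomain, for 7 days by the labels, on a cycle of 3 days on and 2 days off. Recipients were 7 to 8 weeks old when the tumor was implanted, and the age of the WT group was not given in the sources used here. Each marrow sample pooled 3 mice and was sorted as DAPI- CD45+ Ter119- cells (CD45+) or as DAPI- CD45+ Lin- c-Kit+ cells (c-Kit+). The lineage cocktail of the second sort held an antibody to B220, so B cells with surface B220 were gated out of it. Every sort and group had 2 libraries, and whether these came from separate pools was not clear from the labels. The p-values therefore rest on the spread between these libraries, moderated over the genes or classes of a fit, and that spread may be technical.

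The CD45+ libraries held 4394 to 6154 kept cells with medians of 4113 to 6596.5 UMIs, and the c-Kit+ libraries 2836 to 7517 kept cells with medians of 6712 to 9512. No 2 libraries of a sort shared a cell barcode, and 263 barcodes occurred in both sorts. Kit was at 99.6 to 154 CPM (a gene's UMIs scaled to the same total for every library or class) in the c-Kit+ libraries and Cd3e at no more than 0.11 CPM. Classes were rebuilt by clustering without the 9 members and are therefore B-like, multipotent-like and so on by marker lists, and are written without that suffix below. All levels are in CPM, a scale on which the 9 genes were not compared with one another because 3′ counts depend on each gene's 3′ end.

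The B-lineage cells fell into 5 named clusters. An Erg/Lef1 cluster (led by Arpp21, Vpreb2, Erg and Lef1), a cycling cluster (Pclaf, Top2a, Mki67) and an Il2ra cluster (Reln, Il2ra, Arl5c) carried the early B markers. A Ly6d/Ms4a1 cluster and an H2-Aa/H2-Eb1 cluster, the latter led by Gpr183, Apoe and the class II genes, carried the mature B markers. The Ly6d/Ms4a1 cluster was the less mature of these by the lists. In WT its mature B list summed to 4995 and 4689 CPM, against 16846 and 15946 in the H2-Aa/H2-Eb1 cluster. Its early B list was at 1657 and 1749 CPM, against 278 and 207. Another 2 B-lineage clusters stayed unnamed, 179 cells led by Mmp8 and S100a9, of which 73.7% had doublet scores in the top 5%, and 24 cells led by Jchain and Ighg1. They were left out of B-lineage totals.

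B-lineage cells became rare in 2 steps. WT libraries held 653 and 660, vehicle libraries 138 and 153, and IACS libraries 41 and 85. As a share of CD45+ cells, vehicle was below WT by a log2 difference of -2.49 ± 0.088 (SE, edgeR quasi-likelihood test on cell numbers, adjusted p = 1.43e-26 over the classes) and IACS below vehicle by -1.18 ± 0.16 (adjusted p = 1.43e-08). The groups did not overlap in either step. These p-values depend on which classes were fitted together. For the same counts of T and NK cells (vehicle against WT, -2.55), the edgeR test gave an unadjusted p = 3.96e-14 in this fit. It gave 2.34e-06 in the fit by stage used for the clusters below. That fit also held the early B and mature B sums as rows of their own. Where B cells were instead taken from every deposited barcode by at least 2 UMIs of Cd79a and Cd79b together, a rule chosen after seeing the data, the second step was -0.48 (adjusted p = 0.119). Of the kept cells picked by that UMI rule, 87.0% and 85.3% lay in the 5 named B-lineage clusters in WT, 69.6% and 72.5% in vehicle, then 39.2% and 45.7% in IACS. Another 6.55% to 14.2% per library lay in the unnamed clusters.

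The stages did not thin out alike. The Erg/Lef1 cluster, which carried the pro-B genes, held 0.961% and 0.819% of CD45+ cells in WT, 0.156% and 0.181% in vehicle, then 0.123% and 0.195% in IACS. Its share fell from WT to vehicle (log2 difference -2.38, adjusted p = 2.05e-05), and between vehicle and IACS the libraries overlapped (-0.054, adjusted p = 0.908). These IACS shares rest on 6 and 12 cells.

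The next 3 clusters nearly emptied under IACS-70654. Cycling early B cells numbered 125 and 114 in WT, 32 and 37 in vehicle, then 1 and 2 in IACS. The Il2ra cluster held 209 and 199 cells, then 50 and 60, then 1 and 2. The Ly6d/Ms4a1 cluster held 167 and 195, then 46 and 39, then 2 and 2. Each fell from WT to vehicle, by -2.11, -2.21 and -2.41 (adjusted p = 3.32e-07, 5.25e-08 and 4.22e-07), and again from vehicle to IACS, by -4.38, -5.05 and -4.30 (adjusted p = 4.52e-06, 7.75e-07 and 3.13e-05).

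The H2-Aa/H2-Eb1 cluster moved the other way between the tumor-bearing groups. It held 108 and 116 cells in WT, 2 and 6 in vehicle, then 31 and 67 in IACS. Its share of CD45+ cells was lower in vehicle than in WT (log2 difference -5.08, adjusted p = 4.22e-07), higher in IACS than in vehicle (3.59, adjusted p = 5.88e-05) and lower in IACS than in WT (-1.49, adjusted p = 7.57e-05). Within B-lineage cells, early B cells were lower in IACS than in vehicle by -1.83 and the H2-Aa/H2-Eb1 cluster was higher by 4.80 (adjusted p = 3.06e-13). Vehicle also differed from WT within B-lineage cells, with the H2-Aa/H2-Eb1 cluster lower by -2.61 (adjusted p = 8.61e-08) and early B cells higher by 0.30 (0.0274). Any level summed over B-lineage cells therefore compares different mixtures of stages.

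**Figure D1:**
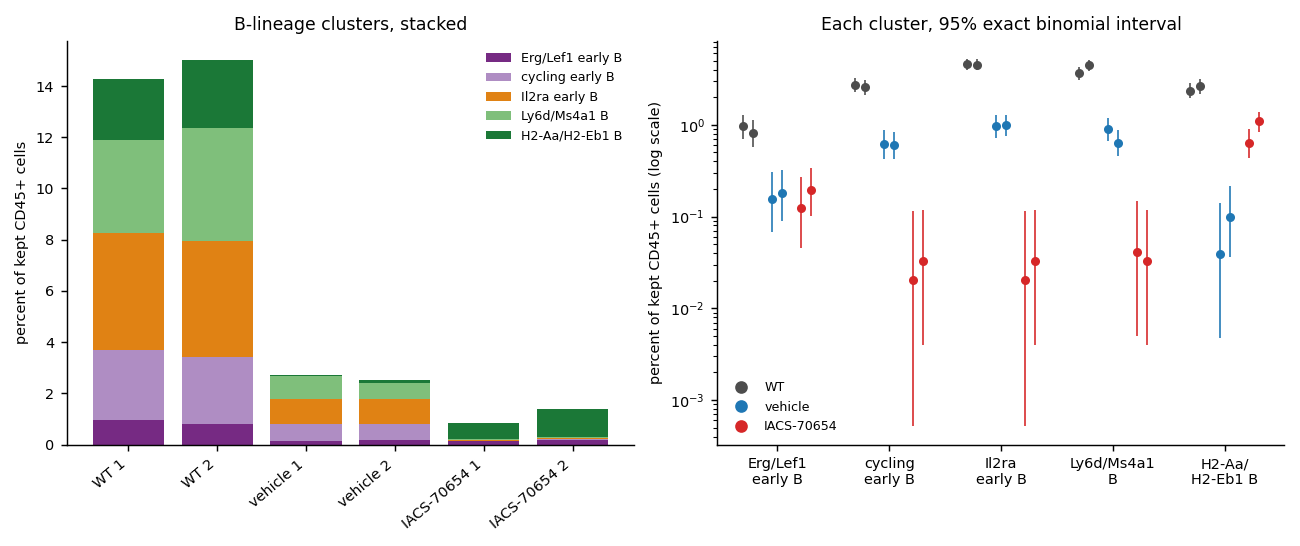
Stacked bars give the percent of CD45+ cells in each of the 5 B-lineage clusters for the 6 CD45+ libraries, and the points give the share of each cluster on a log axis with 95% exact binomial intervals. The cycling, Il2ra and Ly6d/Ms4a1 clusters drop to 1 or 2 cells in each IACS library, while the H2-Aa/H2-Eb1 cluster, at 2 and 6 cells in vehicle, stands at 31 and 67 in IACS.

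The transcription factor pair rose from progenitors to B cells. In the stem-like class of the c-Kit+ sort, Ebf1 was at 0 to 3.89 CPM in the 6 libraries. In the class of multipotent and lymphoid-primed progenitors (MPP), led by Cmah, Ighv1-77, Flt3 and Satb1, Ebf1 was at 76.1 and 134 CPM in WT, 89.5 and 127 in vehicle, then 177 and 75.3 in IACS. In the lymphoid progenitor class Ebf1 stood at 6067 and 4772, 6579 and 5529, and 6357 and 7216 CPM. That class, named by its marker list, was near the Erg/Lef1 cluster in Pax5 and Igll1, as given below.

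Across the B-lineage clusters Ebf1 was highest in the Erg/Lef1 and Il2ra clusters in WT. Its level was 10707 and 11422 CPM in the Erg/Lef1 cluster of the WT libraries, 5057 and 5133 in cycling cells, 10898 and 11305 in the Il2ra cluster, 6142 and 5824 in the Ly6d/Ms4a1 cluster, and 4039 and 3538 in the H2-Aa/H2-Eb1 cluster. The WT libraries of the Erg/Lef1 and Il2ra clusters overlapped, and those of every other pair of these clusters did not. Mature neutrophils of the CD45+ sort, which should lack it, held 8.66 to 13.9 CPM. In neutrophil progenitors, the background within the c-Kit+ sort, it was at 0 to 1.24 CPM, below every MPP library and overlapping with stem-like cells. WT cycling cells had medians of 6769 and 6856 UMIs, against 3855.5 and 4033 in the Erg/Lef1 cluster and 2517 and 2522 in the Il2ra cluster. For Ebf1 and the members below, CPM in cycling cells is a share of that larger total, and UMIs per cell are not compared here.

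Pax5 appeared later in the order of classes. Its MPP level of 1.84 to 5.51 CPM rested on 3 to 12 UMIs per library, and it passed no expression filter there. Lymphoid progenitors held 330 to 513 CPM over the 6 libraries. In WT it was 880 and 681 CPM in the Erg/Lef1 cluster, 523 and 525 in cycling cells, 1014 and 961 in the Il2ra cluster, 1231 and 1214 in the Ly6d/Ms4a1 cluster, and 964 and 896 in the H2-Aa/H2-Eb1 cluster. Unlike Ebf1, Pax5 was highest in the Ly6d/Ms4a1 cluster.

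Vpreb1 and Igll1, whose products together form the surrogate light chain, were concentrated at the start. Vpreb1 stood at 2748 and 2681 CPM in the Erg/Lef1 cluster of WT, at 370 and 480 in cycling cells, at 29.8 and 117 in the Il2ra cluster and at 6.65 and 7.30 in the Ly6d/Ms4a1 cluster. Igll1 followed the same order, at 1339 and 1349, 260 and 289, and 31.7 and 81.7 CPM, with 0 and 3 UMIs in the Ly6d/Ms4a1 cluster. In lymphoid progenitors of the 6 libraries, Vpreb1 ranged from 795 to 1559 CPM and Igll1 from 660 to 1223. In MPP, Vpreb1 was at 1.84 to 8.20 CPM, and Igll1 had 4 UMIs in 1 library and 0 in the other 5. Vpreb2, the near copy of Vpreb1, was among the genes that led the Erg/Lef1 cluster. The part of shared reads in the Vpreb1 level of that cluster was not tested.

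Vpreb3 lasted longer than the other light chain genes. WT libraries held 2673 and 2936 CPM in the Erg/Lef1 cluster, 1835 and 1859 in cycling cells, 3439 and 3337 in the Il2ra cluster and 2227 and 2318 in the Ly6d/Ms4a1 cluster. In the H2-Aa/H2-Eb1 cluster it was at 177 and 195 CPM, below all 4 other clusters. Lymphoid progenitors ranged from 776 to 2167 CPM, both ends being WT libraries, and MPP from 0 to 8.95.

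The recombinase gene Rag1 showed 2 high stages separated by the cycling cells. In WT it was at 234 and 298 CPM in the Erg/Lef1 cluster, 34.5 and 36.0 in cycling cells, 380 and 342 in the Il2ra cluster, and 17.7 and 25.6 in the Ly6d/Ms4a1 cluster. The first 3 of these clusters did not overlap with one another. Rag2 was sparser, with 20 to 40 UMIs per WT library in each of these 3 clusters, at 93.6 and 188, 28.9 and 37.8, and 44.7 and 44.8 CPM in the same order, and it had 1 and 0 UMIs in the Ly6d/Ms4a1 cluster. In MPP, Rag1 was at 4.90 to 12.3 CPM, against 0 to 0.163 in neutrophil progenitors of the same sort. Rag2 was at 1.22 to 11.1 CPM there, against 0 to 1.38, and its lowest library, with 2 UMIs, lay within that background.

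Dntt was the member with the earliest high level. Stem-like cells held 47.3 and 44.6 CPM in WT, MPP 529 and 663, lymphoid progenitors 572 and 815, and the Erg/Lef1 cluster 880 and 881. It then fell to 31.7 and 57.7 CPM in cycling cells and to 1 UMI per WT library in the Il2ra cluster. No Dntt UMI was seen in the Ly6d/Ms4a1 cluster of WT, which at 3 UMIs allows up to 6.65 and 5.48 CPM, or in the H2-Aa/H2-Eb1 cluster of any library.

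Il7r rose with lymphoid priming and persisted until the Il2ra cluster. In WT it was at 1.31 and 2.01 CPM in stem-like cells, 92.5 and 96.5 in MPP, and 815 and 252 in lymphoid progenitors, which numbered 16 and 8 cells. The early B clusters held 571 and 523 CPM (Erg/Lef1), 478 and 498 (cycling) and 630 and 726 (Il2ra), and the Ly6d/Ms4a1 cluster 57.7 and 63.9. Only 2 and 0 UMIs were counted in the H2-Aa/H2-Eb1 cluster. These levels along the stages are a description, since the members and stages were both chosen for this pathway.

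**Figure D2:**
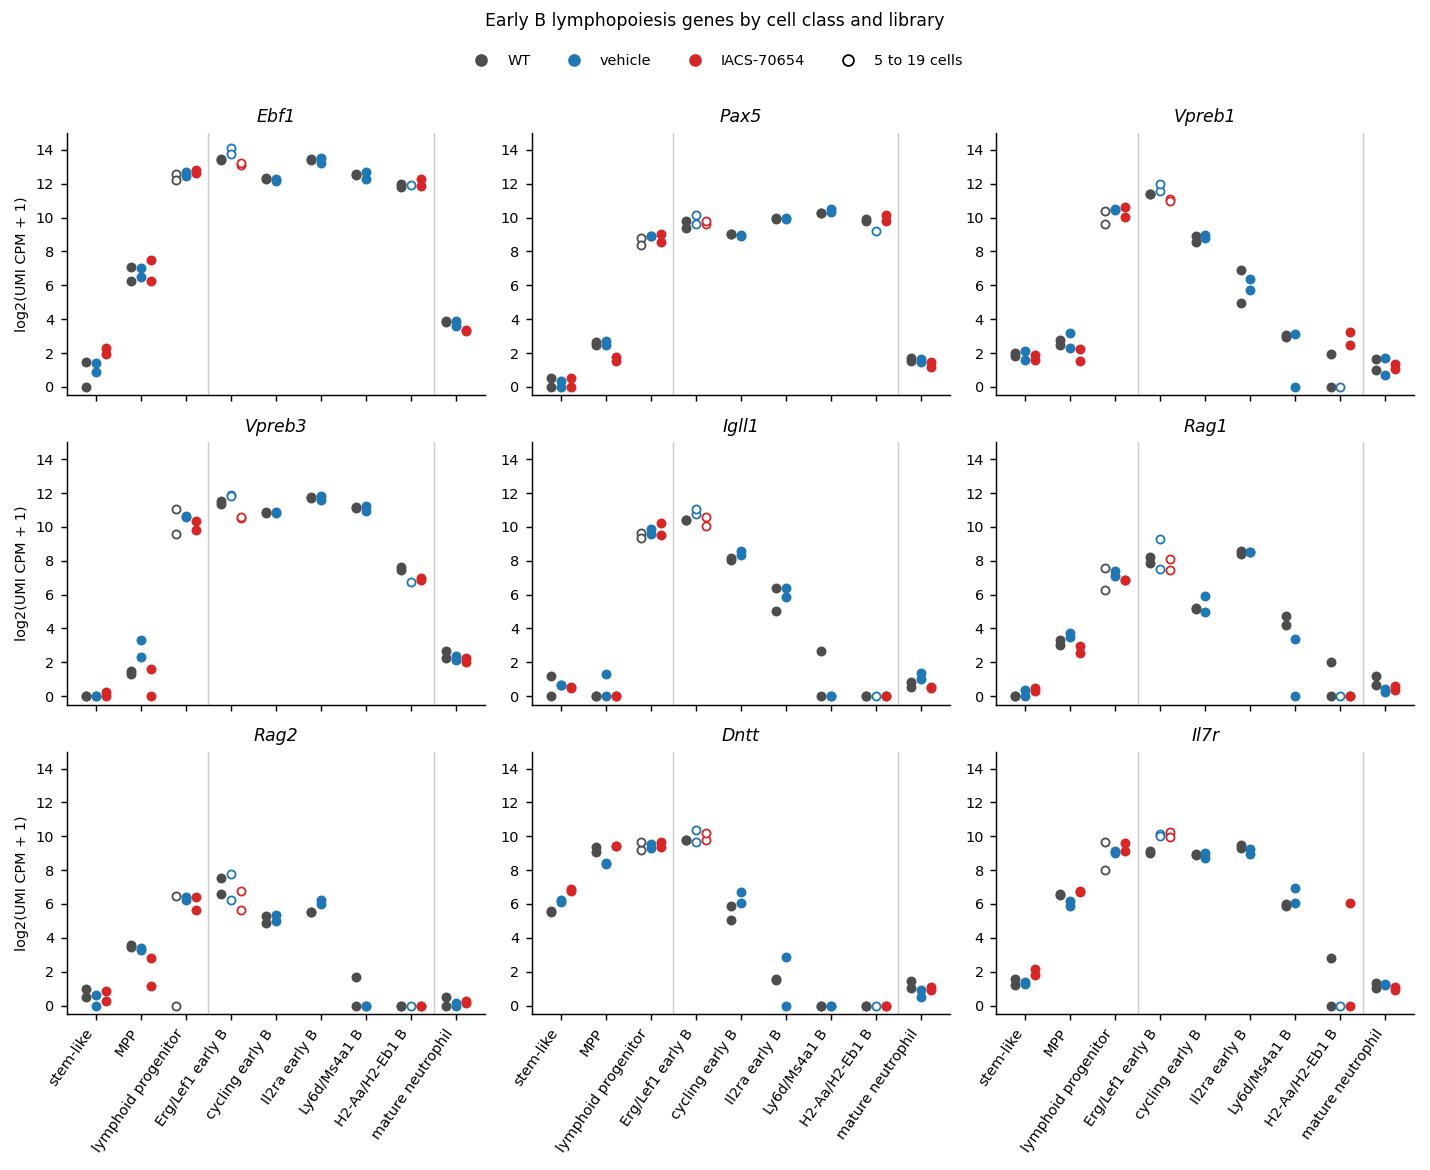
Each panel plots 1 member as log2(CPM + 1) against the class, from stem-like cells to the H2-Aa/H2-Eb1 cluster with mature neutrophils as background. Each point is 1 library, filled with at least 20 cells in the class and open with 5 to 19. Dntt is high before the B-lineage clusters, Vpreb1 and Igll1 drop after the Erg/Lef1 cluster, and Rag1 is high in the Erg/Lef1 and Il2ra clusters with a low level in cycling cells between them.

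The closest patterns among 12455 genes were sought by Pearson correlation of log2(CPM + 1) over 66 points, which are class and library pairs from 13 classes that share libraries, so no p is given. Ebf1 was closest to Pax5 (0.977) and then Cd79a (0.956), and Pax5 was close to Pou2af1 (0.975). Vpreb1 and Igll1 were close to each other (0.933). Rag1 was near Gfra1 (0.930), and Rag2 near Cacna2d1 (0.912) and Rag1 (0.908). Dntt stood apart, nearest to Ighv1-77 (0.921), and its correlations with Vpreb3 (0.10) and Pax5 (0.11) were the lowest among the member pairs. Il7r was nearest to Atp1b1 (0.854).

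In the sum over all CD45+ cells every member was lower in vehicle and in IACS than in WT. Ebf1 was at 731 and 737 CPM in WT, 155 and 134 in vehicle, then 48.4 and 57.7 in IACS. Vpreb3 was at 220 and 223, 47.0 and 46.6, and 6.92 and 7.71 CPM. Neither gene overlapped between groups. In such a sum, fewer B cells and less RNA per cell cannot be told apart.

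A gene was called where its adjusted p over all genes tested was under 0.01 and its log2 difference over 0.5 in size (edgeR). All 9 members were called lower in vehicle than in WT in this sum, by -1.18 (Dntt) to -2.04 (Pax5), where 24.4% of 15774 genes were called in either direction. Between vehicle and IACS, 8 of 9 were called lower, by -1.02 (Il7r) to -2.90 (Vpreb3), against 19.7% of genes. Dntt was the exception, at 7.72 and 7.91 CPM in vehicle and 10.7 and 7.79 in IACS, with a difference of -0.004 (adjusted p = 0.983). Between WT and IACS all 9 were lower, by -1.18 (Dntt) to -4.79 (Vpreb3), against 16.1% of genes.

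With the named and unnamed B-lineage clusters taken out of the sum, 3, 1 and 5 members were called in these 3 comparisons, beside 19.2%, 21.2% and 12.5% of 15556 genes. For example, Pax5 was then -0.46 from WT to vehicle (adjusted p = 0.0864) and Vpreb1 and Igll1 turned to 0.39 and 0.61 (adjusted p = 0.266 and 0.154). Dntt (-1.16, adjusted p = 1.13e-05) and Il7r (-1.69, adjusted p = 1.08e-09) were still lower in vehicle than in WT outside B-lineage cells. Other classes that held their UMIs made up less of the CD45+ cells in vehicle too, pDC by -1.21 (adjusted p = 2.64e-09), the progenitors of this sort by -1.22 (1.13e-06) and T and NK cells by -2.55 (1.72e-13), and the part of these shares in the result was not tested. Within the classes, no difference between vehicle and WT was called, at 0.13 (adjusted p = 0.944) for Dntt and 0.085 (0.955) for Il7r in pDC, -0.50 (0.510) for Dntt in the progenitors and -1.37 (0.0264) for Il7r in T and NK cells. From vehicle to IACS, Vpreb3 remained lower outside the B-lineage clusters (-0.75, adjusted p = 0.00148). Of the 280 and 400 Vpreb3 UMIs of the IACS libraries, mature neutrophils, which should lack it, held 42 and 43. Immature neutrophils held 28 and 31, and monocytes 19 and 16. The part of such background in this difference was not tested.

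Where the UMIs of each member lay differed between the genes. The 5 named B-lineage clusters held 89.4% and 87.6% of all Ebf1 UMIs in WT, 77.0% and 80.5% in vehicle, then 58.4% and 62.3% in IACS, and the unnamed ones another 7.77% to 23.3% per library, highest in IACS. For Vpreb3 the shares in named clusters were 91.5% and 90.6%, 81.4% and 80.7%, and 39.6% and 47.2%, with 20.7% and 24.8% in unnamed clusters in IACS. For Dntt those in named clusters were only 37.9% and 32.5%, and 14.7% and 29.2%, and no more than 23.0% in IACS, with 34.9% to 57.2% of its UMIs in plasmacytoid dendritic cells (pDC). Il7r was intermediate, at 58.8% and 59.4%, 46.9% and 48.7%, and 19.1% and 22.7%.

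**Figure D3:**
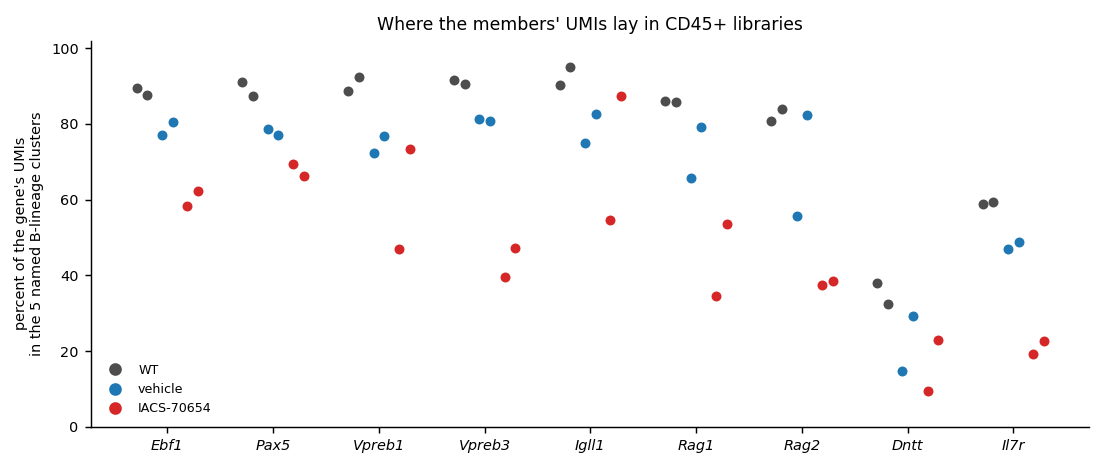
For each member, the points give the percent of its UMIs that lay in the 5 named B-lineage clusters in each of the 6 CD45+ libraries. Dntt and Il7r lie lowest in the WT libraries, and the IACS libraries lie below the WT libraries for every member.

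Within B-lineage cells, no member was called between vehicle and WT. Here 0.639% of 7671 genes were called in either direction. Igll1 came nearest, at 224 and 217 CPM in WT and 285 and 325 in vehicle, a difference of 0.46 ± 0.11 (adjusted p = 0.0220). Ebf1 (0.062) and Pax5 (-0.017) differed by less than their standard errors. Without vehicle replicate 1, Dntt became called (0.80, adjusted p = 0.00659). These sums held 108 and 116 cells of the H2-Aa/H2-Eb1 cluster in WT and 2 and 6 in vehicle.

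In the sum of the 3 early B clusters, 0 of 9 members were called between vehicle and WT by edgeR, beside 0.0114% of 8749 genes, which is 1 gene, with 575 genes at an unadjusted p under 0.05. The 9 differences lay between -0.043 (Il7r) and 0.26 (Igll1, adjusted p = 0.616), on 378 and 349 early B cells in WT and 90 and 108 in vehicle. IACS, with 8 and 16 early B cells, fell under the minimum of 20 cells per library set for a test and was not tested in this sum.

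Between IACS and vehicle, 3 of 9 members were called in B-lineage cells, where 12.3% of genes were called. Vpreb3 was at 2375 and 2349 CPM in vehicle and 581 and 581 in IACS, a difference of -1.97 ± 0.12 (adjusted p = 5.35e-16). Rag1, at 114 and 163 against 47.1 and 70.7 CPM, fell by 1.12 ± 0.28 on the log2 scale (adjusted p = 3.22e-03). Dntt moved in the opposite direction, from 70.3 and 144 to 214 and 286 CPM, a rise of 1.29 ± 0.22 (adjusted p = 2.90e-05). The levels of these called genes did not overlap between the groups, and the share of all genes without overlap is not given here. With 2 libraries per group, an exact permutation test cannot place such a separation below 0.333.

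Ebf1 at -0.22 (adjusted p = 0.123), Pax5 at 0.33 (0.0439), Rag2 at -0.97 (0.150) and Il7r at -0.40 (0.0565) were not called. Against WT, 4 of 9 members were called in IACS, beside 10.4% of genes. Vpreb3 was lower (-1.80 ± 0.12, adjusted p = 5.64e-15), and Vpreb1 (0.56 ± 0.13, 1.06e-03), Igll1 (0.78 ± 0.14, 7.47e-05) and Dntt (1.70 ± 0.20, 2.51e-08) were higher. These sums were taken over the mixtures of stages given above. Without the filter on low counts, only Vpreb3 remained called in each IACS comparison (1.36% and 1.05% of 18156 genes called), Rag1 being -1.22 (adjusted p = 0.0910) and Dntt 1.18 (0.104) against vehicle. Without IACS replicate 2, the larger of the IACS libraries, only Vpreb3 remained called in each IACS comparison, Rag1 being -1.62 (adjusted p = 0.0192) and Dntt 0.91 (0.0962) against vehicle. Rag1 also lost its call by DESeq2 (-1.13, 0.0182), without IACS replicate 1 (-0.93, 0.0559) and without vehicle replicate 2 (-0.86, 0.0525). Against WT, Vpreb1 lost its call without either WT replicate or without IACS replicate 1, at adjusted p = 0.0264, 0.0301 and 0.0127.

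With B cells taken by the UMI rule, 8 of 9 members were called in each IACS comparison, beside 8.56% of 10293 genes against vehicle and 19.5% against WT. Between vehicle and WT 1 was called, Pax5 (-0.51, adjusted p = 0.00594), beside 2.41%. In IACS, Pax5, Vpreb1 and Igll1 turned negative against vehicle (-1.05, -1.06 and -1.11). Dntt was then 0.21 (adjusted p = 0.631) against vehicle. The part of the cells so picked that lay outside the named clusters was larger in IACS, as given above, and its role in these values was not tested. Vpreb3 was lower with either choice of cells.

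Share of cells with a Vpreb3 UMI gave the same order. After thinning to 1000 UMIs per cell, the mean over libraries was 74.8% in WT, 86.5% in vehicle and 23.4% in IACS, and 86.7%, 94.6% and 45.0% before thinning. In mature neutrophils the thinned share was 0.302% to 0.388%. Ebf1 was seen in 92.7% to 97.6% of B-lineage cells of the 6 libraries after thinning. In IACS 31 of 41 and 67 of 85 of these cells belonged to the H2-Aa/H2-Eb1 cluster, in which Vpreb3 was at 177 and 195 CPM in WT.

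**Figure D4:**
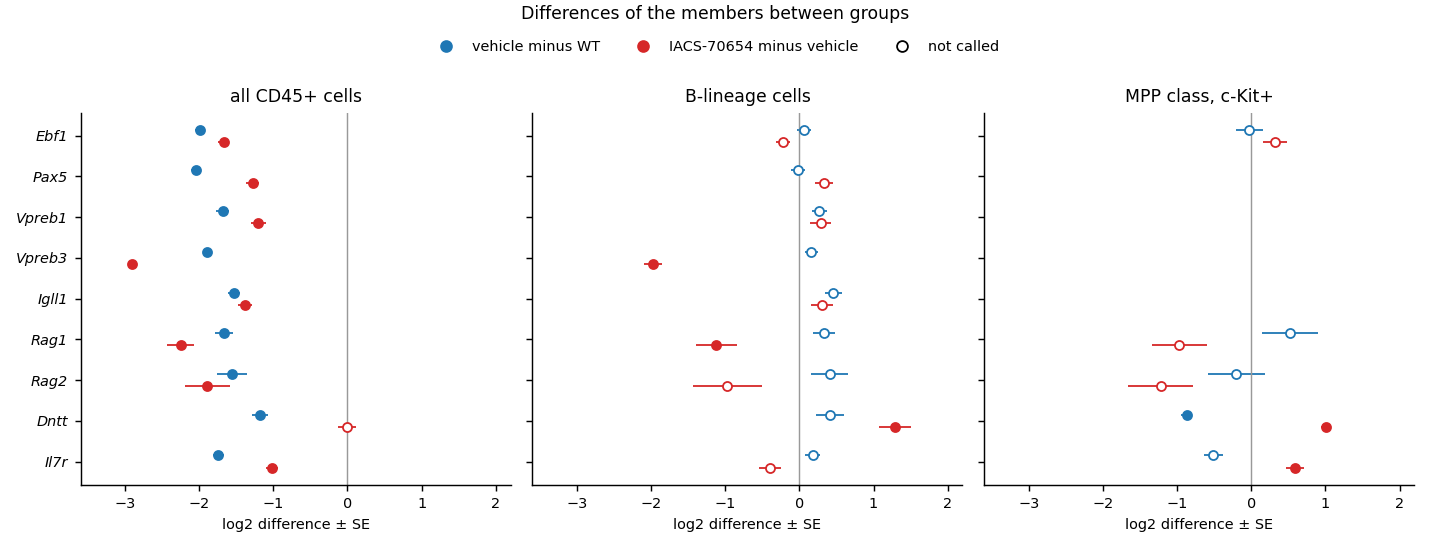
Points give the log2 difference of each member with its standard error for vehicle minus WT and IACS minus vehicle in all CD45+ cells, B-lineage cells and MPP, filled where called. In all CD45+ cells every filled point lies below 0, whereas in B-lineage cells only Vpreb3 (-1.97), Rag1 (-1.12) and Dntt (1.29) are filled, and in MPP only Dntt and Il7r. Pax5, Vpreb1, Vpreb3 and Igll1 did not pass the filter on low counts in MPP and are not drawn there.

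In the mature B clusters together, Vpreb3 was the 1 member called. It was at 1366 and 1479 CPM in WT, 2287 and 1665 in vehicle, then 174 and 162 in IACS. It was lower in IACS than in vehicle by -3.49 ± 0.23 (adjusted p = 3.68e-19, where 7.65% of 3830 genes were called) and lower than in WT by -3.05 ± 0.22 (3.68e-17, 4.96%). Without IACS replicate 1, whose 8 Il7r UMIs were the only ones in IACS, Il7r was called as well. No member was called between vehicle and WT, against 0.914% of genes. In vehicle nearly all mature B cells belonged to the Ly6d/Ms4a1 cluster and in IACS to the H2-Aa/H2-Eb1 cluster.

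Each mature cluster alone gave no called member. In the H2-Aa/H2-Eb1 cluster, Vpreb3 was at 177 and 195 CPM in WT and 124 and 116 in IACS (-0.66, adjusted p = 0.538), with 0.154% of 4531 genes called. In the Ly6d/Ms4a1 cluster, vehicle against WT gave 0% of 4927 genes called by edgeR, with 338 at an unadjusted p under 0.05, and Vpreb3 differed by -0.100. Both IACS libraries of the H2-Aa/H2-Eb1 cluster lay below both WT libraries for Vpreb3, by a difference that this depth of 15 to 70 UMIs per library could not tell from 0.

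The Erg/Lef1 cluster alone could be followed in all 3 groups with 6 to 44 cells per library, by lowering that minimum to 5 cells, a choice made after seeing the data. Vpreb3 was at 2673 and 2936 CPM in WT, 3857 and 3616 in vehicle, then 1471 and 1554 in IACS, with no overlap between groups. It was lower in IACS than in vehicle by -1.21 ± 0.19 (adjusted p = 1.23e-08) and than in WT by -0.82 (9.36e-05). Ebf1, at 17927 and 14119 CPM in vehicle and 8824 and 9697 in IACS, was lower by -0.70 ± 0.14 (2.07e-05), and Vpreb1 by -0.71 ± 0.18 (0.00118). Against WT neither Ebf1 (-0.19, adjusted p = 0.472) nor Vpreb1 (-0.31, 0.276) was called in IACS. Cells of this cluster had medians of 3855.5 and 4033 UMIs in WT, 2784 and 3818 in vehicle, then 7004 and 6285 in IACS. The part of this depth in the differences was not tested. Between IACS and vehicle 12.4% of 1415 genes were called in this cluster.

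Il7r in the Erg/Lef1 cluster stood at 571 and 523 CPM in WT, 1139 and 1018 in vehicle, then 1233 and 995 in IACS. Both tumor-bearing groups lay above WT, and the difference was called in IACS (1.06, adjusted p = 3.92e-04) but not in vehicle (0.94, 0.0136). In IACS against WT 3.11% of genes were called. Between vehicle and WT, Ebf1 was called (0.51, 0.00870), beside 1.98% of genes, whereas the early B clusters together gave -0.018. Dntt, at 880 and 881, 808 and 1299, and 865 and 1156 CPM, overlapped between all groups. Against vehicle, Dntt in IACS differed by -0.003 ± 0.26 (adjusted p = 0.996) within this cluster. Against WT, neither Dntt (0.29, 0.531) nor Igll1 (0.070, 0.890) was called in IACS here, although both were called higher in the sum over B-lineage cells. As a part of B-lineage cells, the Erg/Lef1 cluster was larger in IACS than in vehicle by 1.12 (adjusted p = 0.0191), a call lost without vehicle replicate 1 (0.99, 0.0677) or IACS replicate 2 (1.16, 0.110).

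Upstream, the MPP class held 5.52% and 5.56% of c-Kit+ cells in WT, 4.57% and 4.87% in vehicle, then 4.87% and 5.95% in IACS. Both vehicle libraries lay below both WT libraries, both IACS libraries above both vehicle libraries (366 of 7517 against 138 of 2836 cells for the nearest pair), and IACS overlapped with WT. None of the differences (-0.25, 0.19 and -0.058) was called (adjusted p = 0.0914, 0.171 and 0.688), although TMM scaling of the class counts called the first 2, at -0.41 and 0.57, as did leaving out vehicle replicate 2 (-0.28) and IACS replicate 1 (0.35). Stem-like cells rose in IACS from 9.83% and 12.3% in vehicle to 24.9% and 24.4% (log2 difference 1.19, adjusted p = 1.26e-05).

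Dntt was the member that changed most clearly in MPP. It was at 529 and 663 CPM in WT, 323 and 341 in vehicle, then 689 and 691 in IACS. The vehicle libraries lay below both other groups, and the IACS libraries lay above both. It fell from WT to vehicle by 0.87 ± 0.072 on the log2 scale (adjusted p = 8.60e-16) and rose from vehicle to IACS by 1.01 ± 0.069 (2.11e-20), and IACS against WT was 0.13 (0.220). It was the 1 member called between vehicle and WT, where 0.608% of 10031 genes were called. This class mixes multipotent and lymphoid-primed cells. For Dntt, and for Il7r below, a change in the shares of these cells and in level per cell cannot be told apart.

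Il7r followed the same course on a smaller scale in MPP. Its levels were 92.5 and 96.5 CPM in WT, 72.3 and 59.0 in vehicle, then 105 and 107 in IACS, without overlap. The difference between vehicle and WT was not called (-0.51, adjusted p = 0.0182), and the rise to IACS was (0.59 ± 0.12, 3.24e-04), as the second of 2 members called where 3.83% of genes were. Without vehicle replicate 2 the rise was 0.49 (0.0155), and by DESeq2 it was 0.61 (0.0502). No member was called between IACS and WT, against 3.17% of genes.

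After thinning MPP cells to 3000 UMIs, Dntt was seen in a mean of 46.0% of cells in WT, 35.1% in vehicle and 48.4% in IACS, and in 51.9%, 42.1% and 54.5% before thinning. Neutrophil progenitors of the same sort gave 0.556% to 2.00% after thinning. The thinned share with an Il7r UMI was 20.7%, 15.6% and 19.4%, against no more than 0.444% in neutrophil progenitors.

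The other members in MPP were low. Rag1 was at 12.3 and 10.2 CPM in vehicle and 6.93 and 4.90 in IACS (-0.97, adjusted p = 0.0702), and Rag2 at 9.69 and 8.65 against 6.12 and 1.22 (-1.22, 0.0562). Rag2 was called in IACS without IACS replicate 1, at -2.91 against vehicle and -3.10 against WT. Ebf1 (0.32, 0.197) turned on 1 library, since IACS replicate 1 held 177 CPM and replicate 2 75.3, and the difference was -0.50 without replicate 1 and 0.72 without replicate 2, where it was called (adjusted p = 5.05e-07). It was also called without vehicle replicate 2 (0.51, 0.00444).

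In stem-like cells Dntt rose in both steps. It was at 47.3 and 44.6 CPM in WT, 68.0 and 74.0 in vehicle, then 106 and 118 in IACS, without overlap. The differences were 0.56 ± 0.13 (adjusted p = 3.35e-03), 0.65 ± 0.085 (3.33e-08) and, for IACS against WT, 1.21 ± 0.10 (3.98e-14). It was the 1 member called in each comparison, beside 0.769%, 4.36% and 3.38% of 11437 genes. The thinned share of stem-like cells with a Dntt UMI was 8.57% and 8.21% in WT and 17.4% and 15.8% in IACS, and both vehicle libraries lay between these. The summed basophil marker list in stem-like cells (5 of 5 genes detected) was at 111 and 130 CPM in WT, 64.3 and 68.5 in vehicle, then 173 and 166 in IACS. The MPP list (8 of 8) was at 812 to 848 CPM in WT and vehicle and at 951 and 963 in IACS. The T and NK list was at 83.4 to 106 CPM in WT and vehicle and at 52.5 and 55.3 in IACS. The erythroid list of the c-Kit+ sort was at 362 and 393 CPM in WT, 271 and 227 in vehicle, then 287 and 277 in IACS. The part of these lists in the result was not tested.

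Lymphoid progenitors of the c-Kit+ sort, a class named by its marker list, already expressed 8 or 9 of the members in each library. Before thinning, Pax5 was seen in 67.9% to 78.8% of them in vehicle and IACS, and Igll1 in 88.5% to 94.0%. The Erg/Lef1 cluster in WT gave 81.8% and 80.6% for Pax5 and 93.2% and 88.9% for Igll1. MPP gave no more than 2.96% and 1.33%. By these genes the class was nearer to pro-B cells than to MPP. Lymphoid progenitors were more frequent in vehicle than in WT. They numbered 16 and 8 cells in WT, 50 and 35 in vehicle, then 52 and 28 in IACS, with shares of 0.413% and 0.263%, 0.761% and 1.23%, and 0.692% and 0.649% of c-Kit+ cells. The rise to vehicle was 1.38 (adjusted p = 0.00679) and that to IACS 0.96 against WT (0.0443), and IACS against vehicle was -0.43 (0.171), or -0.87 (0.0116) without vehicle replicate 1. Both calls were lost without either WT library (1.78 and 1.14 for vehicle, adjusted p = 0.0542 and 0.0911). The IACS call was also lost without IACS replicate 1 (0.90, 0.0824).

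Within lymphoid progenitors, 0 of the members were called between IACS and vehicle by edgeR, with 0.161% of 3720 genes called, and Vpreb3 was at 1536 and 1579 against 909 and 1315 CPM (-0.50, adjusted p = 0.205). WT had too few cells for this test. Summed over all c-Kit+ cells, Ebf1 stood at 15.5 and 19.1 CPM in WT, 28.1 and 44.2 in vehicle, then 34.3 and 32.7 in IACS.

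In that c-Kit+ sum, 5 of 9 members were called higher in vehicle than in WT, Ebf1 (0.97), Pax5 (1.13), Vpreb1 (0.99), Vpreb3 (1.24) and Igll1 (1.12), beside 9.76% of 15750 genes in either direction. Between IACS and vehicle 3 were called, Vpreb3 (-0.88), Rag2 (-1.06) and Dntt (0.82), beside 10.5%. Between IACS and WT 2 were called, Ebf1 (0.90) and Igll1 (1.00), beside 10.8%. With DESeq2 the counts were 4, 1 (Dntt) and 1 (Ebf1), beside 7.09%, 6.89% and 7.68% of genes. Leaving out single libraries, 7.63% to 9.69%, 7.16% to 10.3% and 8.82% to 10.4% of genes were called in these comparisons. The first count was 3 without WT replicate 2. The second was 5 without vehicle replicate 1 and 1 without vehicle replicate 2, and the third was 1 without WT replicate 1 and 4 without either vehicle library or without IACS replicate 1.

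Genes that work with the members were counted in lists. In B-lineage cells between IACS and vehicle, 12 of 13 tested mature B genes were higher (median log2 difference 2.48, against 0.003 over all genes), among them Cd74 (2.48), H2-Eb1 (3.27) and the complement receptor Cr2 (3.55). In this comparison 12.3% of all genes were called, and the lists were summed over cells of which the H2-Aa/H2-Eb1 cluster made up 2 and 6 in vehicle and 31 and 67 in IACS. Of 16 B-lineage transcription factors, 1 was higher, Mef2c (1.18), and 7 were lower, among them Sox4 (-1.68), Tcf3 (-1.44), Spib (-1.36) and Myb (-1.25). Of 10 partners of the recombinase, end joining genes among them, 4 were lower, Lig4 (-2.89), Hmgb2 (-2.49), Hmgb1 (-1.35) and Xrcc6 (-1.28). Hmgb1 and Hmgb2 encode DNA-bending proteins that also mark dividing cells. Cycling B cells numbered 1 and 2 in IACS, and their part in these values was not tested.

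In the same comparison, with its 12.3% of genes called and the same change of stages, 3 of 6 tested IL-7 signalling genes were higher in IACS, the survival gene Bcl2 (3.28), Jak1 (1.30) and Stat5b (1.10). Of 10 pre-B-cell and B-cell receptor genes 1 was lower, Ighm (-0.67). Of 6 lymphoid priming genes Satb1 (1.31), Lsp1 (0.92) and Cd52 (0.53) were higher and Ly6d (-2.58) was lower. Between vehicle and WT, 8 of 13 mature B genes were lower (median -0.96, against 0.002 over all genes), and Bcl2 was lower by -1.60, where 0.639% of genes were called and the H2-Aa/H2-Eb1 cluster was smaller in vehicle. In the early B clusters no gene of any list was called between vehicle and WT, beside 0.0114% of all genes.

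Around the members in MPP, Bcl2 was lower in IACS than in vehicle (-0.90) and Blnk, an adaptor of the B-cell receptor, was lower too (-1.02), whereas Satb1 (0.71), Syk (0.59) and H2-Ab1 (2.13) were higher and Irf8 was lower (-0.55). Against WT, Bcl2 (-0.80), Blnk (-1.19), Cd52 (-0.68) and Notch1 (-0.58) were lower and Lyn (0.51) was higher in IACS. Between vehicle and WT only H2-Ab1 was called among the list genes (-1.66). Of the 6 lists 8, 8, 11, 10, 4 and 9 genes were tested in MPP (IL-7 signalling, receptor genes, transcription factors, recombinase partners, mature B, lymphoid priming), beside 3.83%, 3.17% and 0.608% of all genes called in these 3 comparisons. In stem-like cells Bcl2 was lower in IACS than in vehicle (-0.74) and than in WT (-1.04), beside 4.36% and 3.38% of genes called.

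Outside the B lineage, Dntt and Il7r had further sources. In pDC, which share the lymphoid program in part, Dntt was at 184 and 179 CPM in WT, 220 and 175 in vehicle, then 254 and 158 in IACS, with overlap and no call. Il7r in pDC was at 256 and 211, 269 and 221, and 152 and 123 CPM. It was lower in IACS than in vehicle (-0.87, adjusted p = 4.68e-04) and than in WT (-0.79, 6.13e-04), where 3.51% and 4.56% of 9460 genes were called, and 0.0423% were called between vehicle and WT. The summed B-lineage marker list in pDC moved with it, at 913 to 1484 CPM in the WT and vehicle libraries and 242 in each IACS library. The pDC list itself was at 8581 to 9665 CPM in WT and vehicle and at 6444 and 5983 in IACS, and the neutrophil progenitor list at 397 to 630 and at 1188 and 764. The part of these lists in the result was not tested.

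Basophils showed the opposite course for Il7r. Their level was 101 and 128 CPM in WT, 30.3 and 38.6 in vehicle, then 280 and 251 in IACS, from 20 to 48 cells per library, without overlap. Il7r rose from vehicle to IACS by 2.86 ± 0.34 (adjusted p = 3.15e-07) and was above WT by 1.19 (0.00347), and vehicle against WT was -1.67 (0.0155), not called. In these comparisons 1.37%, 1.65% and 0.169% of 4734 genes were called. The summed T and NK marker list in basophils was at 283 to 463 CPM in the WT and vehicle libraries and 46.7 and 68.4 in IACS, and its part in the result was not tested.

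The basophil and mast progenitors of the c-Kit+ sort moved alike at a lower level, with 7.61 and 2.24 CPM in WT, 1.57 and 1.65 in vehicle, then 12.6 and 14.0 in IACS, from 3 to 15 UMIs per library. The rise from vehicle to IACS was 2.88 (adjusted p = 6.42e-06), and the other differences were 1.19 against WT (0.120) and -1.69 for vehicle against WT (0.105). In the same cells the T and NK list was at 306 to 386 CPM in WT and vehicle and 121 and 104 in IACS. There 9.35%, 4.58% and 1.36% of 9919 genes were called.

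In T and NK cells, Il7r was at 303 and 442 CPM in WT, 81.3 and 206 in vehicle, then 199 and 169 in IACS, from 21 to 122 cells. The differences were -1.37 for vehicle against WT (adjusted p = 0.0264), 0.32 for IACS against vehicle and -1.05 for IACS against WT (0.0822), none of them called, where 1.07%, 0.645% and 0.701% of 3564 genes were called. The summed neutrophil marker list in these cells was at 11273 to 22277 CPM in WT and IACS libraries and at 47391 and 59772 in vehicle, and its part in the result was not tested.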

How the data were processed

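Single-cell 3′ RNA-seq with sample multiplexing (CellPlex) was analysed from 12 marrow libraries, 2 sorts of 3 groups of 2, and the 4 tumor libraries were not used. The authors deposited filtered UMI count matrices made with Cell Ranger 7.2.0 per the file headers, with mm10 (GRCm38) as the build in the submitters' processing notes. Whether intronic reads were counted was not given in the sources used here. The labels give 7 days of treatment and the study's text 6 for marrow.

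Barcodes were kept between 200 and 6000 detected genes if mitochondrial UMIs made up 10% or less (Python 3.11.15). Each sort was clustered in scanpy 1.11.5 (2000 variable genes without the members, 30 components, 20 neighbors, leidenalg 0.10.2 at resolution 1, and 0.8 for B-lineage cells), and clusters were named from marker lists. Doublets were scored, and leaving out the top 5% was an alternative. UMIs were summed per library and class with at least 20 cells, filtered by filterByExpr and tested in edgeR 4.0.16 (R 4.3.3, TMM, quasi-likelihood, all 6 libraries of a sort, Benjamini-Hochberg over all genes of the class). The threshold for a call was 0.01 for the adjusted p together with a size of 0.5 for the log2 difference. Standard errors are the log2 difference divided by the root of F. Class shares were tested likewise on cell counts, with 0.05 as the threshold. DESeq2 1.42.0 was an alternative. The scripts were tested on simulated data. A planned marker rule for picking B cells and 1 neighbor of a member's pattern are not reported here.

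The genes named are the 9 members, and of 6 surrounding lists those called or among the 3 of highest mean level. The members and lists were chosen with earlier results of these data known. Binomial intervals and the limit of 3 UMIs for a count of 0 cover counting error only.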

Additional observations from a re-analysis of the deposited data

Results flagged for a closer look

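The difference of Dntt from WT differed between progenitor classes by an interaction test, chosen after seeing the data. The difference of the log2 differences, MPP minus stem-like, was -1.43 ± 0.14 for vehicle against WT (edgeR, adjusted p = 3.94e-10 over 11266 genes) and -1.08 ± 0.12 for IACS against WT (2.83e-09). Dntt fell in MPP and rose in stem-like cells in both vehicle libraries. For IACS against vehicle, where Dntt rose in both classes, it was 0.35 (0.0543).

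The differences of Il7r in IACS were not alike in basophils and pDC. Basophils minus pDC gave 3.71 ± 0.39 for IACS against vehicle (edgeR, adjusted p = 3.79e-07 over 8542 genes) and 1.96 ± 0.30 for IACS against WT (1.59e-04). For vehicle against WT it was -1.75 (0.0536). The classes come from the same libraries, so these tests compare parts of the same samples. The marker lists that moved with Il7r in each class were given with the levels, and their part was not tested.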

How the results depend on the processing

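In all, 2036 values were recomputed under another setting, and these also hold values other than those of single members. Single members called in the report kept their direction and their call in 516, lost the call in 49 and reversed in 4. Members not called stayed so in 709, became called in 31 and reversed in 54. With RLE size factors, and in the sums over every deposited barcode, no count of members called moved by more than 1.5 times. The limits are those of depth: 41 and 85 B-lineage cells in IACS, of which 8 and 16 were early B cells, 16 and 8 lymphoid progenitors in WT, and 2 libraries per group, where an exact permutation test cannot go below 0.333. Unless given below, the cause of a change was not tested.

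With B cells taken by the rule of 2 UMIs over Cd79a and Cd79b (chosen after seeing the data), 1, 8 and 8 members were called in B-lineage cells (vehicle against WT, IACS against vehicle, IACS against WT). Against WT, vehicle then gave Ebf1 -0.43, Vpreb1 -0.20, Vpreb3 -0.33, Igll1 -0.006, Rag1 -0.16 and Il7r -0.23. IACS gave Pax5 -1.05, Vpreb1 -1.06 and Igll1 -1.11 against vehicle and Pax5 -1.56, Vpreb1 -1.26 and Igll1 -1.12 against WT. The share of B cells by this rule in every deposited barcode was -0.48 for IACS against vehicle. With the unnamed B-lineage clusters kept (also chosen after seeing the data), Ebf1 was -0.015 for vehicle against WT and Pax5 -0.024 for IACS against WT.

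In single clusters, also chosen after seeing the data, the H2-Aa/H2-Eb1 cluster gave 0 members called for IACS against WT, with Ebf1 at 0.18 and Pax5 at 0.077, and the Ly6d/Ms4a1 cluster gave Ebf1 -0.039 and Vpreb3 -0.100 for vehicle against WT. The Erg/Lef1 cluster gave Ebf1 0.51, Pax5 0.24 and Il7r 0.94 for vehicle against WT. With DESeq2, Ebf1 in MPP was 0.012 for vehicle against WT, and members called were 1 in MPP (IACS against vehicle) and 1 and 1 in all c-Kit+ cells (IACS against vehicle, IACS against WT). Without the filter on low counts, members called in B-lineage cells were 1 and 1 in the IACS comparisons and 4 in all c-Kit+ cells (IACS against WT), Vpreb3 in early B cells was -0.022 (vehicle against WT) and Dntt in all CD45+ cells was 0.034 (IACS against vehicle). For that c-Kit+ count, 10.8% of all genes were called with the filter, and the share without it is not given here. Without the named and unnamed B-lineage clusters in the CD45+ sum (chosen after seeing the data), 3, 1 and 5 members were called, Vpreb1 was 0.39 and Igll1 0.61 for vehicle against WT, and Dntt 0.13 for IACS against vehicle.

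TMM scaling of the class counts moved the MPP share to -0.41 (vehicle against WT), 0.57 (IACS against vehicle) and 0.16 (IACS against WT), the first 2 of them called. Without the cells of highest doublet score, the lymphoid progenitor share was 0.89 (IACS against WT) and lost its call. Without thinning, the share of MPP with a Dntt UMI was 51.9%, 42.1% and 54.5% (WT, vehicle, IACS), that with an Il7r UMI 28.5%, 22.5% and 26.7%, and that of B-lineage cells with a Vpreb3 UMI 86.7%, 94.6% and 45.0%. With another random seed, Il7r was at 14.8% in vehicle and 21.9% in IACS, and Vpreb3 at 87.3% in vehicle.

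Counts over all genes also moved. With DESeq2 the genes called were 22, against 49, in B-lineage cells (vehicle against WT) and 437, against 795 (IACS against WT), 4, 168 and 52, against 35, 293 and 190, in mature B cells, 16, 92 and 69, against 61, 384 and 318, in MPP, and 1085, against 1653, in all c-Kit+ cells (IACS against vehicle). Without the filter they were 0, 247 and 191 in B-lineage cells, against 49, 943 and 795, and 3 in early B cells, against 1. By the UMI rule they were 248 (vehicle against WT) and 2007 (IACS against WT) in B-lineage cells. Without the highest doublet scores there were 15 in mature B cells (vehicle against WT).

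Leaving out 1 library at a time gave these ranges. As parts of B-lineage cells for vehicle against WT, early B was 0.23 to 0.36, mature B -0.60 to -0.36, the Erg/Lef1 cluster -0.071 to 0.26 and the Ly6d/Ms4a1 cluster -0.11 to 0.27, and the Erg/Lef1 cluster was 0.99 to 1.30 (IACS against vehicle) and 1.08 to 1.38 (IACS against WT). Of c-Kit+ cells, MPP was -0.28 to -0.19, 0.059 to 0.35 and -0.19 to 0.10 in the 3 comparisons, lymphoid progenitors 1.13 to 1.82, -0.87 to -0.17 and 0.71 to 1.35, and stem-like cells -0.19 to 0.14 (vehicle against WT).

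Members called in B-lineage cells ranged from 0 to 1, 1 to 3 and 1 to 4 (0.370% to 0.558%, 5.12% to 11.5% and 3.49% to 10.8% of all genes in the same fits), in mature B cells from 1 to 2 (IACS against vehicle, 2.90% to 6.66%), in MPP from 2 to 4 (IACS against vehicle, 2.07% to 3.15%) and 0 to 1 (IACS against WT, 1.03% to 3.35%), and in all c-Kit+ cells from 3 to 5, 1 to 5 and 1 to 4 (7.63% to 9.69%, 7.16% to 10.3% and 8.82% to 10.4%). For vehicle against WT, B-lineage cells gave Ebf1 -0.010 to 0.14, Pax5 -0.14 to 0.11 and Dntt -0.23 to 0.80. Early B cells gave Ebf1 -0.086 to 0.046, Pax5 -0.10 to 0.046, Vpreb1 -0.074 to 0.17, Rag1 -0.063 to 0.33, Dntt -0.37 to 0.54 and Il7r -0.18 to 0.098. Ebf1 was -0.097 to 0.31 in mature B cells and -0.40 to 0.38 in MPP, and Il7r was -0.26 to 0.088 in all c-Kit+ cells.

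For IACS against vehicle, Igll1 was -0.037 to 0.45 in B-lineage cells, Ebf1 -0.50 to 0.72 in MPP and Dntt -0.22 to 0.22 in all CD45+ cells, and all c-Kit+ cells gave Ebf1 -0.44 to 0.20, Igll1 -0.47 to 0.18 and Il7r -0.038 to 0.31. For IACS against WT, mature B cells gave Pax5 -0.22 to 0.058 and Il7r -7.03 to 0.74 (8 UMIs in IACS replicate 1 and 0 in replicate 2), MPP gave Ebf1 -0.53 to 0.70 and Dntt -0.019 to 0.27, and all c-Kit+ cells gave Il7r -0.033 to 0.14.

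The replicate numbers did not pair the libraries: deviations from the group means of same-numbered libraries correlated at -0.037 to 0.039 over 5 classes. With the replicate block, 180 of 182 results kept their call. The exceptions were the early B cells, where 0 genes, against 1, were called, and Vpreb1 in all c-Kit+ cells, which became called for IACS against WT (0.53, adjusted p = 0.00906, beside a range of 0.39 to 0.69 without single libraries).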

Other observations

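Outside the named classes, Il7r was also high in a small CD45+ cluster led by Gata3 and Il1rl1, genes of type 2 innate lymphoid cells among others. It held 11, 9, 5, 2, 4 and 6 cells in the WT, vehicle and IACS libraries and Il7r at 1274 and 1925, 716 and 970, and 1441 and 1029 CPM. With so few cells the groups were not compared. The progenitors within the CD45+ sort, which were not gated on c-Kit, held Dntt at 120 and 139 CPM in WT, 84.3 and 96.1 in vehicle, then 85.5 and 74.8 in IACS.

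The ratio of Ebf1 to Vpreb3 UMIs was computed per library. In B-lineage cells it was 3.24 and 3.19 in WT, 3.12 and 2.87 in vehicle, then 10.3 and 9.88 in IACS. In mature neutrophils, which should lack both genes, the ratio was 2.52 and 3.50, 3.37 and 3.21, and 2.33 and 3.00. The neutrophils of the IACS libraries held these UMIs in a ratio near that of the WT and vehicle B-lineage cells and far from that of the B-lineage cells in their own libraries.

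In the unnamed B-lineage cluster led by Mmp8 and S100a9, Dntt was at 54.2 and 14.2 CPM in WT, 173 and 28.9 in vehicle, then 248 and 0 in IACS, and libraries of the same group differed widely. Vpreb2, the near copy of Vpreb1, was at 49.2 and 53.4 CPM in B-lineage cells of WT, 41.4 and 59.2 in vehicle, then 68.0 and 70.7 in IACS.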
